A study of Homo sapiens with 12 samples.

Results

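The nuclear-encoded respiratory chain subunits are the structural parts of the mitochondrial complexes I to V that the cell transcribes from chromosomes in the nucleus. They were chosen by symbol from the protein-coding genes of the count table: the NDUFA, NDUFB, NDUFC, NDUFS, NDUFV, UQCR, ATP5F1, ATP5M and ATP5P families, SDHA to SDHD, CYC1 and the ubiquitous COX subunits, with assembly factors and pseudogenes left out. The rule gave 84 members among 63677 genes: 37 of complex I, 4 of complex II, 10 of complex III, 13 of complex IV (NDUFA4 and NDUFA4L2 were counted there), 18 of complex V and 2 readthrough genes. The readthrough genes ATP5MF-PTCD1 and NDUFC2-KCTD14 had at most 4 reads in any library, and the other 82 members passed the filter on low counts.

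Complexes I and II pass electrons from NADH and succinate to ubiquinone, complex III passes them on to cytochrome c, and complex IV passes them to oxygen. Complexes I, III and IV pump protons as they do so, and complex V, the ATP synthase, uses the proton gradient to make ATP. Iron is built into the chain as iron-sulfur clusters in complexes I to III and as heme in complexes II to IV, and ironomycin, a salinomycin derivative, is a drug that traps iron in lysosomes.

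RNA-seq was performed on 3 established mantle cell lymphoma (MCL) lines, JEKO1, JVM2 and MAVER1. Every line was kept as control, given ironomycin, given ibrutinib (an inhibitor of the kinase BTK) or given the combination for 48 h, which gave 12 libraries of polyadenylated RNA. Ironomycin was given at 50 nM to JEKO1 and at 250 nM to JVM2 and MAVER1. Ibrutinib was given at 0.5 µM to JEKO1, 1.5 µM to JVM2 and 6.25 µM to MAVER1, and JVM2 grew at a lower cell density and with less serum than the other lines. Each line gave 1 library per treatment, so replication came from the 3 lines. The ibrutinib dose, and the ironomycin dose of JEKO1 against the other lines, cannot be told apart from the line. The libraries held 35448523 to 38630809 counted reads, of which 0.683% to 1.10% fell on the 84 members.

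The B-cell genes CD79A, CD79B, MS4A1 and PAX5 were all at 97.4 CPM (counts scaled to a common library total) or more in every library, while the T-cell, monocyte, epithelial, stromal and erythroid markers CD3E, CD3D, CD14, LYZ, EPCAM, COL1A1 and HBB stayed at or under 32.9 CPM, with HBB at 0 in all libraries. Of these 7 markers, 5 were tested, and with both drugs EPCAM rose by 0.97 ± 0.20 (adjusted p = 0.00708) while CD3E fell by 1.97 ± 0.33 (adjusted p = 0.00385) and LYZ fell by 1.46 ± 0.34 (adjusted p = 0.0116) on the log2 scale in edgeR. Their part in the results was not tested. The MCL gene SOX11 had no reads in the 4 JVM2 libraries, and cyclin D1 (CCND1) had its lowest level, 216 CPM, in that line. With ironomycin, averaged over ibrutinib, CD79A and CD79B fell among these 4 B-cell genes, CCND1 fell by 0.33 ± 0.11 (adjusted p = 0.0429 by edgeR) and SOX11 rose by 1.03 ± 0.18 (adjusted p = 0.00484 by edgeR), and their part in the results was likewise not tested. CPM values here are scaled by TMM factors and count a gene's share of the library, so fewer cells of one kind and less RNA per cell cannot be told apart.

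Sequence at the start of the genes is shown because the members moved together. RefSeq windows on GRCh38.p14 from 250 bases before to 50 bases after the start were found for 68 of the 84 members. The motif GCGCAN followed by GCGC (N is any base), bound by nuclear respiratory factor 1 (NRF1), was present on either strand in 16 of these 68 windows (23.5%), against 10.98% of the 12097 windows of tested genes and 6.29% of all 27305 windows. The ETS motif CCGGAAG, bound by GABP and other ETS factors, was present in 20 member windows (29.4%), against 18.1% of the windows of tested genes. The YY1 motif AAGATGGCG was present in 8 member windows (11.8%), against 3.61%, and the E-box CACGTG in 7 (10.3%), against 9.83%. A match is a description of the letters and not evidence of binding, and no test was run on these shares.

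The 250 bases before the start are shown for 1 member per complex, the one that fell most with both drugs among those with a motif in this stretch whose sequence could be shown, and for NDUFA4L2, which rose and holds none of the 4 motifs here. The other members that rose do hold motifs in their full windows, NDUFA13 the ETS motif and NDUFA7 the YY1 motif and the E-box. NDUFC1, with the largest fall of all members, holds none of the 4. At least 1 of the 4 motifs was present in 39 of the 68 member windows (57.4%), against 35.6% of the windows of tested genes. Capitals mark motif matches, and each sequence reads 5′ to 3′ toward the start of the gene, on GRCh38.p14.
NDUFB4, chr3:120596086-120596335, plus strand: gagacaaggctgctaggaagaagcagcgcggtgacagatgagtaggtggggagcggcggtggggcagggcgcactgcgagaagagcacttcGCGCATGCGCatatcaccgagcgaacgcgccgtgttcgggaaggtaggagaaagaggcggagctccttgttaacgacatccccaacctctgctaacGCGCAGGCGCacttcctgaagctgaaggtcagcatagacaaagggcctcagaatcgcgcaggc
SDHB, chr1:17054033-17054282, minus strand: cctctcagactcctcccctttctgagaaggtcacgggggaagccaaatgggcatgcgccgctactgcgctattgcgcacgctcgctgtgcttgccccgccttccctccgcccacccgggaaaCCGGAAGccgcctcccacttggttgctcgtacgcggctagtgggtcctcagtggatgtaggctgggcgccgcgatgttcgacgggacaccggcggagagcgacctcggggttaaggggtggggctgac
UQCR11, chr19:1605463-1605712, minus strand: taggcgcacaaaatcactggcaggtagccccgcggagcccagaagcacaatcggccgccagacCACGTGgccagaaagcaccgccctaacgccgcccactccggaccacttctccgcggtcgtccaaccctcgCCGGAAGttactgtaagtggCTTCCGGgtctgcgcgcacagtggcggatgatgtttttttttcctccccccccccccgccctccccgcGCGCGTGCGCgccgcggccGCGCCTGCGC
COX6B1, chr19:35648073-35648322, plus strand: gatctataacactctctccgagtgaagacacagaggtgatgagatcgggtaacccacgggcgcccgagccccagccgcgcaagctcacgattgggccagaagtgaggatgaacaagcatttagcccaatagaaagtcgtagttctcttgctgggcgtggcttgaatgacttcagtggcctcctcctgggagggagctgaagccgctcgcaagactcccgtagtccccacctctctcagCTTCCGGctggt
ATP5F1C, chr10:7787927-7788176, plus strand: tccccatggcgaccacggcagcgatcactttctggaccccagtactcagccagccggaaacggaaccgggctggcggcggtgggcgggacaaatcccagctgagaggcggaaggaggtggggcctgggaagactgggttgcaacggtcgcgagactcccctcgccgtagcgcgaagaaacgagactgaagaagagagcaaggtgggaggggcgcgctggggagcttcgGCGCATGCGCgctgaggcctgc
NDUFA4L2, chr12:57240763-57241012, minus strand: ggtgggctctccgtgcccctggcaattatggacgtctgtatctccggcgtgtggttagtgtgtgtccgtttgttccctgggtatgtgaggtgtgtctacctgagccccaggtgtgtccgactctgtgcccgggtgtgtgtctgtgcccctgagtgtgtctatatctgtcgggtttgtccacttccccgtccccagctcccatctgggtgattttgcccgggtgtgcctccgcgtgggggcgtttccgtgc
NDUFB4 has NRF1 motif matches at 2 places, and UQCR11 has NRF1, ETS and E-box matches. With both drugs the median log2 change of the 16 tested members whose window has the NRF1 motif was -0.56, and that of the 51 tested members without it was -0.48. The corresponding medians were -0.55 and -0.48 with and without the ETS motif, -0.54 and -0.52 for the YY1 motif, and -0.59 and -0.49 for the E-box.

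With both drugs together, transcripts of the respiratory chain were lower in all 5 complexes. Of the 82 members tested, 62 fell and 3 rose at an adjusted p under 0.05 (edgeR's quasi-likelihood test with treatment and cell line as terms, Benjamini-Hochberg adjustment over all 18674 genes tested), where 14.0% of all genes fell and 14.2% rose. The median log2 change of the members was -0.51, or 70.3% of control, against 0.05 for all genes. Lower levels in all 3 lines were seen for 67 members (81.7%), against 23.1% of all genes. None of the 65 calls reached a log2 change of 1 in size.

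Without JEKO1 or without MAVER1 no member was called, whereas without JVM2 the count was 70 (68 lower, 2 higher). Each of these fits had fewer libraries, and counts over all genes are not given beside them. A loss of calls particular to the members therefore cannot be read from them. The median changes of the members without each line were -0.41, -0.46 and -0.71 for JEKO1, MAVER1 and JVM2 left out. Scaling by library totals instead of TMM factors moved the median of all genes from 0.05 to 0.18 and that of the members from -0.51 to -0.39, with 53 members lower and 3 higher. It also moved the split of all genes called from 2655 higher and 2613 lower to 3934 higher and 1563 lower.

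The fall was of similar size in the 5 complexes. With both drugs 25 of 37 members of complex I fell (median -0.45), 3 of 4 of complex II (-0.43), 8 of 10 of complex III (-0.62), 10 of 13 of complex IV (-0.60) and 16 of 18 of complex V (-0.55). In single lines the medians of the 5 complexes lay between -0.63 and -0.81 in JEKO1, between -0.18 and -0.24 in JVM2 and between -0.45 and -0.68 in MAVER1, so JVM2 lay apart from the other lines in every complex while the ranges of JEKO1 and MAVER1 overlapped. Differences between complexes were not tested.

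**Figure D1:**
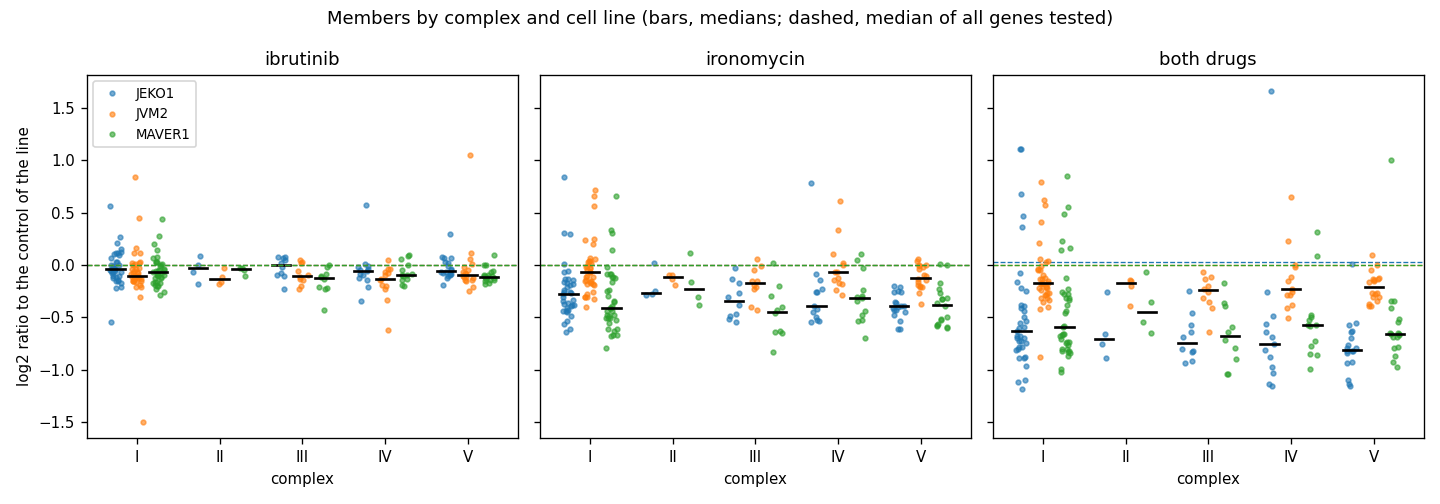
Log2 ratio of each treated library to the control of its line (y axis) for the members tested, by complex (x axis) and cell line (colour), in panels for ibrutinib, ironomycin and both drugs. Each point is a member, bars are medians and dashed lines are the median of all genes tested; with both drugs the medians of JEKO1 and MAVER1 lie between -0.45 and -0.81 and those of JVM2 between -0.18 and -0.24.

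With ironomycin alone most members were lower than control, by a smaller amount. The median log2 change was -0.28 against 0.03 for all genes, and 55 members (67.1%) were lower in all 3 lines, against 20.8% of all genes. By edgeR 0 members were called, where 0.171% of all genes fell and 0.412% rose. An unadjusted p under 0.05 was seen for 45 of the 82 members and for 4198 of all 18674 genes. DESeq2 called 31 members, all lower, among 2308 genes called, and without JVM2 edgeR called 34, all lower, among 1636 genes called. On data simulated for this comparison DESeq2 called 52 unchanged genes and edgeR 12. Of 100 genes simulated to change by a log2 value of 1, DESeq2 recovered 59 and edgeR 41. The simulation took its spread from a fit with no treatment term and shifted the changed genes alike in all lines. Its counts therefore cannot weigh the 31 calls of DESeq2 against the 0 of edgeR. The members with the lowest p of each complex in edgeR were NDUFB9 (-0.40 ± 0.11 SE, adjusted p = 0.0868), SDHB (-0.28 ± 0.11, adjusted p = 0.154), UQCR11 (-0.49 ± 0.12, adjusted p = 0.0720), COX6B1 (-0.42 ± 0.13, adjusted p = 0.0984) and ATP5MC3 (-0.50 ± 0.13, adjusted p = 0.0815).

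Averaged over the libraries without and with ibrutinib, which uses all 12 libraries, ironomycin lowered 59 members and raised 2, where 16.3% of all genes fell and 17.1% rose. The median was -0.36, against 0.04 for all genes. Without MAVER1 no member was called in this comparison, without JEKO1 there were 13, all lower, and without JVM2 there were 70. Counts over all genes are not given beside these, so a loss of calls particular to the members cannot be read from them.

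With ibrutinib alone 0 members were called by edgeR or DESeq2, and no gene among all those tested was called by edgeR (0%). The median log2 change of the members was -0.08, and 1 member, NDUFA4, had an unadjusted p under 0.05 (-0.21 ± 0.09, adjusted p = 1 by edgeR). Of all 18674 genes, 680 had an unadjusted p under 0.05. The level was lower in all 3 lines for 33 members (40.2%), against 15.2% of all genes.

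Adding ironomycin to ibrutinib lowered 54 members and raised 2, where 11.5% of all genes fell and 11.8% rose, with a median of -0.44. Without JEKO1 or without MAVER1 this count was 0, and without JVM2 it was 67, again with no counts over all genes given beside them. Adding ibrutinib to ironomycin gave a median of -0.23, and 0 members were called by edgeR or DESeq2 (0% of all genes by edgeR). An unadjusted p under 0.05 was seen for 22 of the 82 members and for 1970 of all 18674 genes. In JEKO1 the median log2 ratio of the members to control went from -0.34 with ironomycin to -0.70 with both drugs, in MAVER1 from -0.39 to -0.64 and in JVM2 from -0.11 to -0.19. The departure of both drugs from the sum of the single changes had a median of -0.14, and 0 members were called by edgeR or DESeq2 (0% of all genes called by edgeR). An unadjusted p under 0.05 was seen for 0 members and for 367 of all 18674 genes. The lowest p in that comparison was that of COX6C (-0.35 ± 0.18, adjusted p = 1 by edgeR). These comparisons share libraries and are not independent of each other.

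**Figure D2:**
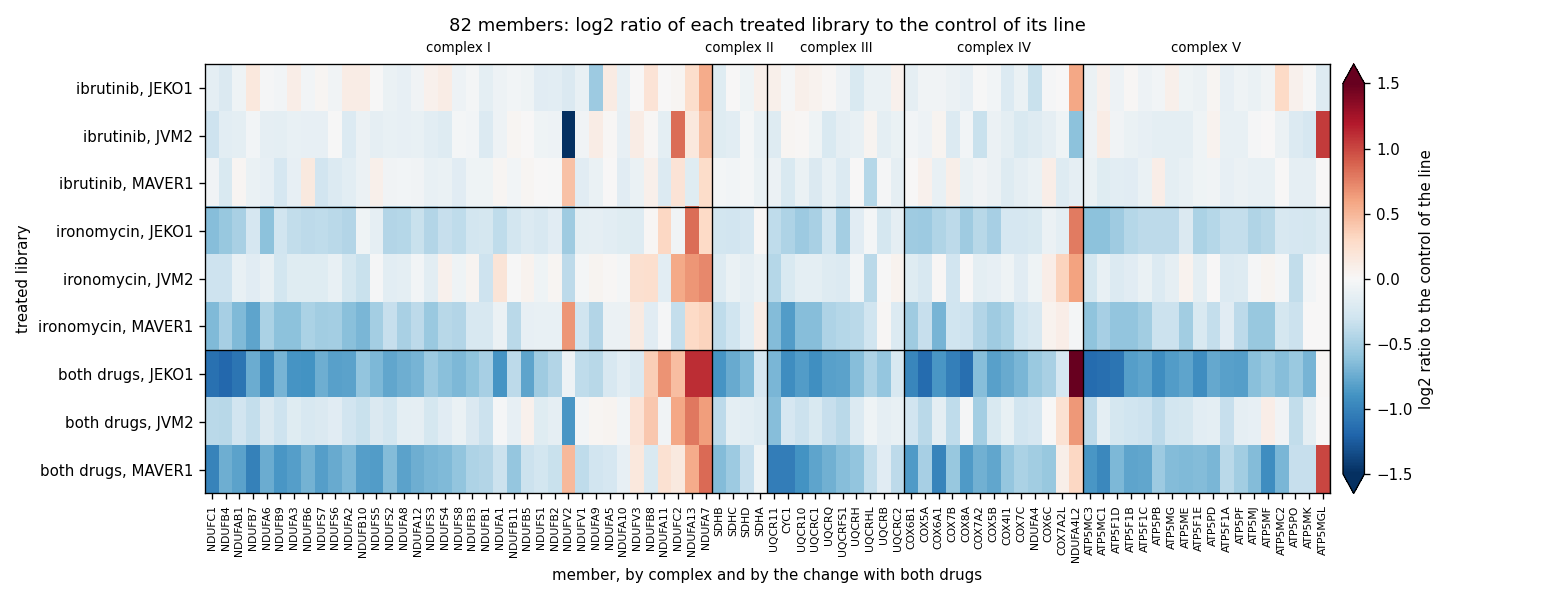
Log2 ratio of each treated library to the control of its line (colour, from -1.5 to 1.5) for the 82 members tested (columns, by complex and ordered by the change with both drugs) in the 9 treated libraries (rows). Blue fills the JEKO1 and MAVER1 rows with both drugs in all 5 complexes, the ibrutinib rows are near white, and the few red columns include NDUFA7, NDUFA13 and NDUFA4L2.

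Complex I oxidises NADH in its N module, reduces ubiquinone in its Q module and pumps protons through its membrane arm. With both drugs 6 of 8 N module members fell (median -0.41), 4 of 5 of the Q module (-0.50) and 13 of 20 of the membrane arm (-0.42), with 1 of the membrane arm, NDUFA13, higher. The largest falls were those of 2 membrane arm subunits. NDUFC1 was at 68.8, 25.8 and 26.8 CPM in the controls of JEKO1, JVM2 and MAVER1, at 44.2, 20.9 and 16.9 with ironomycin, at 62.1, 20.9 and 25.9 with ibrutinib, and at 31.7, 19.5 and 13.4 with both drugs. Each line had its lowest level with both drugs, while the groups overlapped, with JEKO1 above the other lines in each group. Its log2 change with both drugs was -0.83 ± 0.15 SE (n = 3 lines, adjusted p = 0.00517 by edgeR), and that of NDUFB4 was -0.77 ± 0.13 (adjusted p = 0.00383 by edgeR).

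Of the complex I subunits that carry iron-sulfur clusters, 4 of 5 fell with both drugs. NDUFS7, which holds the cluster that reduces ubiquinone, fell by 0.59 ± 0.12 (adjusted p = 0.00777) and NDUFS8 by 0.45 ± 0.11 (adjusted p = 0.0142) on the log2 scale in edgeR. NDUFS1, which holds several clusters of the N module, fell by 0.33 ± 0.08 (adjusted p = 0.0140), and NDUFV1, the flavin-binding subunit that takes electrons from NADH, fell by 0.27 ± 0.09 (adjusted p = 0.0452). NDUFV2 had 8 to 31 reads per library, fewer than its pseudogene (31 to 76), so its level could not be judged.

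The 2 complex I members that rose with both drugs were read rarely. NDUFA7 was at 0.477, 0.314 and 0.415 CPM in the controls of JEKO1, JVM2 and MAVER1 and at 1.09, 0.512 and 0.792 with both drugs (log2 change 0.97 ± 0.26, adjusted p = 0.0190 by edgeR), from 11 to 46 reads per library. NDUFA13, a subunit also known as GRIM-19, was at 0.578, 0.571 and 0.774 CPM in the controls and at 1.30, 1.02 and 1.16 with both drugs (0.86 ± 0.21, adjusted p = 0.0143 by edgeR), from 20 to 55 reads. Each line was higher with both drugs than in its control. Both genes overlap other gene models on the same strand in GENCODE 29, over 32.3% and 21.0% of their exonic length, as do NDUFV2, NDUFB8, NDUFA9, NDUFC2 and COX6A1, all with under 500 reads in every library. How the counting dealt with such overlaps is not given in the sources used here, so these levels are uncertain. Members with more reads had such overlaps too, among them COX8A (34.5%), NDUFS3 (19.6%), ATP5PO (19.6%) and NDUFC1 (18.5%, with MGARP). Among the 73 tested members with 500 reads or more in some library, 61 fell with both drugs and 1 rose.

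Complex II is also succinate dehydrogenase of the citric acid cycle. SDHB, the iron-sulfur subunit, was at 65.0, 104 and 77.8 CPM in the controls of JEKO1, JVM2 and MAVER1 and at 35.2, 79.4 and 49.7 with both drugs, lower in each line (-0.63 ± 0.11, adjusted p = 0.00390 by edgeR). The membrane anchors that hold the heme fell by less, SDHC by 0.47 ± 0.12 (adjusted p = 0.0185) and SDHD by 0.39 ± 0.10 (adjusted p = 0.0193) in edgeR. SDHA, the flavoprotein that oxidises succinate, was at 232, 276 and 209 CPM in the controls and at 195, 241 and 199.8 with both drugs (-0.17 ± 0.09, adjusted p = 0.155 by edgeR). SDHA has 4 pseudogenes that took 17.5% to 31.2% of the reads given to gene and pseudogenes together, and reads shared between them could have been split. The difference between SDHA and SDHB was not tested.

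Complex III carries its electrons through UQCRFS1, the Rieske iron-sulfur protein, and CYC1, cytochrome c1, which holds heme. CYC1 was at 188, 256 and 395 CPM in the controls of JEKO1, JVM2 and MAVER1, at 136, 219 and 222 with ironomycin, at 185, 261 and 336 with ibrutinib, and at 98.4, 214 and 192 with both drugs (-0.74 ± 0.14, adjusted p = 0.00547 by edgeR). UQCRFS1 was at 76.3, 193 and 137 CPM in the controls and at 43.8, 145 and 87.7 with both drugs (-0.62 ± 0.09, adjusted p = 0.00346 by edgeR). Both were lower with both drugs in every line. The largest fall of the complex was that of the small subunit UQCR11, which fell by 0.80 ± 0.12 (adjusted p = 0.00341 by edgeR). The hinge protein UQCRH fell by 0.48 ± 0.11 (adjusted p = 0.0124), while its intronless copy UQCRHL, at 55 to 101 reads, was at -0.29 ± 0.19 (adjusted p = 0.277 by edgeR).

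Of the 10 members that hold an iron-sulfur cluster or heme (NDUFV1, NDUFV2, NDUFS1, NDUFS7, NDUFS8, SDHB, SDHC, SDHD, UQCRFS1 and CYC1), 9 fell with both drugs, with a median of -0.46, beside the -0.51 of all 82 members tested. The exception was NDUFV2.

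Complex IV reduces oxygen with metal centres held by mitochondrially encoded subunits, and its nuclear subunits surround that core. COX6B1 (-0.70 ± 0.13, adjusted p = 0.00480) and COX5A (-0.68 ± 0.14, adjusted p = 0.00662) fell most with both drugs in edgeR. COX5B was at 131, 130.3 and 115 CPM in the controls of JEKO1, JVM2 and MAVER1, at 93.1, 119.9 and 79.6 with ironomycin and at 74.7, 111 and 67.0 with both drugs, lower in each line. COX7A2 fell by 0.62 ± 0.11 (adjusted p = 0.00473 by edgeR), while its relative COX7A2L, which takes part in joining complexes III and IV into supercomplexes, was at 0.02 ± 0.12 (adjusted p = 0.917 by edgeR). The lines differed for COX7A2L: its log2 ratios to control with both drugs were -0.26, 0.23 and 0.08 for JEKO1, JVM2 and MAVER1. Its ironomycin effect was -0.20 ± 0.08, 0.31 ± 0.08 and 0.19 ± 0.08 in that order (difference, adjusted p = 0.0309 by edgeR).

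The pair NDUFA4 and NDUFA4L2 moved in opposite directions. NDUFA4, the form bound to complex IV in most cells, was at 192, 122 and 143 CPM in the controls of JEKO1, JVM2 and MAVER1 and at 130.0, 103 and 99.4 with both drugs (-0.45 ± 0.09, adjusted p = 0.00644 by edgeR). NDUFA4L2, known as a hypoxia-inducible relative that lowers complex I activity, was at 16.6, 5.22 and 8.82 CPM in the controls, at 28.5, 7.99 and 8.65 with ironomycin, at 24.7, 3.38 and 8.0 with ibrutinib and at 52.4, 8.22 and 10.9 with both drugs (0.90 ± 0.25, adjusted p = 0.0241 by edgeR). Its rise was greatest in JEKO1 and least in MAVER1, but the difference of its ironomycin effect between lines did not pass (adjusted p = 0.273 by edgeR).

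**Figure D3:**
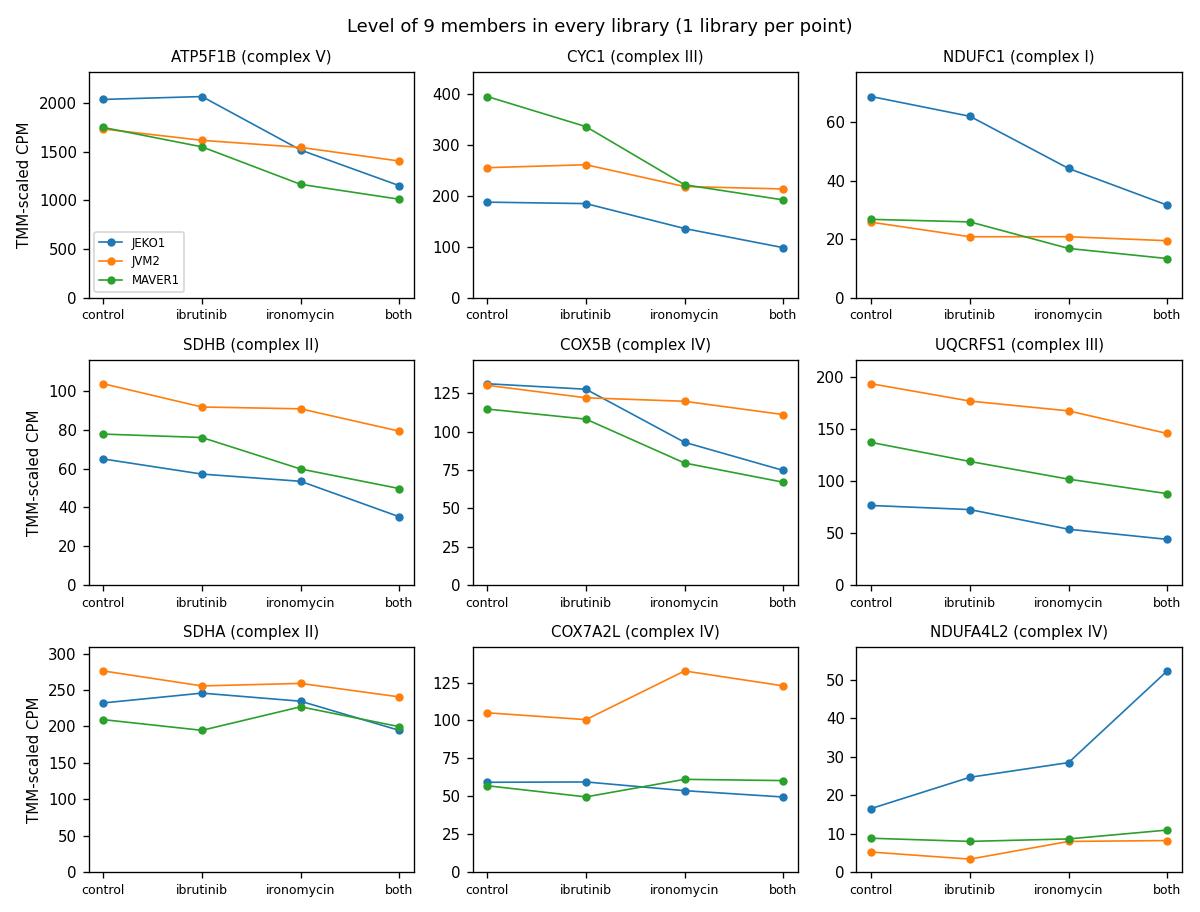
TMM-scaled CPM (y axis, from 0) of 9 members in each of the 12 libraries, with treatment on the x axis and a colour per cell line; each point is 1 library and lines join the libraries of a cell line. ATP5F1B, CYC1, NDUFC1, SDHB, COX5B and UQCRFS1 are lowest with both drugs in every line, COX7A2L is above control in JVM2 and MAVER1 with ironomycin and with both drugs, and NDUFA4L2 rises from 16.6 to 52.4 CPM in JEKO1.

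Complex V had the largest share of falling members. ATP5F1B, the catalytic beta subunit and the member with the highest level per length, was at 2037, 1733 and 1749 CPM in the controls of JEKO1, JVM2 and MAVER1, at 1517, 1545 and 1165 with ironomycin, at 2067, 1617 and 1549.8 with ibrutinib, and at 1151, 1404 and 1012 with both drugs. In every line it was lowest with both drugs, and its log2 change was -0.64 ± 0.13 (adjusted p = 0.00662 by edgeR). The alpha subunit ATP5F1A fell by 0.52 ± 0.11 (adjusted p = 0.00686) and ATP5PB, of the peripheral stalk, by 0.62 ± 0.12 (adjusted p = 0.00522) in edgeR.

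The proton-turning ring of complex V is built from subunit c, whose mature protein is encoded by 3 genes. ATP5MC1 was at 112, 106 and 133 CPM in the controls of JEKO1, JVM2 and MAVER1 and at 50.8, 95.9 and 67.6 with both drugs (-0.74 ± 0.17, adjusted p = 0.00989 by edgeR). ATP5MC3 was at 279, 318 and 133 CPM and at 125, 242 and 72.6 (-0.80 ± 0.13, adjusted p = 0.00383 by edgeR). ATP5MC2 was at 158, 312 and 487 CPM and at 102, 302 and 303 (-0.45 ± 0.15, adjusted p = 0.0495 by edgeR). All 3 genes were lower with both drugs in every line, ATP5MC2 by little in JVM2. ATP5MGL, a copy of ATP5MG, had 48 to 59 reads per library in JEKO1 and at most 2 in a library of the other lines, so no change could be judged.

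With both drugs 17 members were not called, 6 of them with under 500 reads in every library. Those with more reads and a log2 change between -0.2 and 0.2 included SDHA and COX7A2L (above), and NDUFA10 (-0.11 ± 0.07, adjusted p = 0.266 by edgeR), an accessory subunit of complex I. COX6C, of complex IV, was at 38.8, 92.3 and 188 CPM in the controls of JEKO1, JVM2 and MAVER1, at 36.5, 99.0 and 195 with ironomycin and at 27.7, 92.4 and 127 with both drugs (-0.34 ± 0.13, adjusted p = 0.0712 by edgeR).

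The ironomycin effect on the members, averaged over ibrutinib, was then taken in each line. In JEKO1, 64 members fell and 3 rose (median -0.50), where 16.2% of all genes fell and 17.0% rose. In MAVER1, 57 fell and 0 rose (median -0.47), where 16.0% of all genes fell and 16.6% rose, and 54 members fell in both of these lines. The share of all genes that fell in both lines was not taken, so this overlap cannot be set against it. In JVM2 0 were called by edgeR (median -0.10), where 1.35% of all genes fell and 1.92% rose. An unadjusted p under 0.05 was seen there for 17 of the 82 members and for 3692 of all 18674 genes, a similar share. DESeq2 was not run for single lines. JVM2 had the same ironomycin dose as MAVER1, and JEKO1 a lower one.

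The difference of the ironomycin effect between the lines was called for 21 of 82 members, where 9.38% of all genes were called. The change was smallest in JVM2 for 20 of these 21, and for 71 of all 82 members tested. The line with the smallest change was not counted over all genes. Of all genes tested, the ironomycin effect was called for 610 in JVM2, 6211 in JEKO1 and 6104 in MAVER1. Fewer calls in JVM2 were thus not particular to the members. NDUFA6, an accessory subunit of complex I, was at 100.2, 65.6, 98.7 and 51.5 CPM in the control, ironomycin, ibrutinib and combined libraries of JEKO1, at 105, 96.6, 95.5 and 90.2 in JVM2, and at 128, 91.8, 117 and 76.3 in MAVER1. Its level with ironomycin was below control in every line, by least in JVM2. Ironomycin shifted it by -0.77 ± 0.08 in JEKO1, -0.10 ± 0.08 in JVM2 and -0.55 ± 0.08 in MAVER1 (difference, adjusted p = 0.0127 by edgeR). In the same order NDUFA1, a membrane arm subunit, had effects of -0.60 ± 0.09, 0.13 ± 0.09 and -0.22 ± 0.09 (adjusted p = 0.0174 by edgeR). In the same order COX5B had effects of -0.63 ± 0.08, -0.13 ± 0.08 and -0.61 ± 0.08 (adjusted p = 0.0223 by edgeR). In the same order NDUFS5, an accessory subunit of complex I, had effects of -0.40 ± 0.09, -0.05 ± 0.09 and -0.71 ± 0.09 (adjusted p = 0.0261 by edgeR). In the same order ATP5MJ, a small subunit of complex V, had effects of -0.49 ± 0.08, -0.06 ± 0.08 and -0.55 ± 0.08 (adjusted p = 0.0290 by edgeR). Without JVM2, and also without MAVER1, 0 members were called in this comparison, and without JEKO1 the count was 28. Counts over all genes are not given beside these, so they cannot be read as particular to the members. DESeq2 called 34 among 2159 genes called, and on simulated data it called 123 unchanged genes in this comparison, against 5 with edgeR. Of 100 genes simulated to change in JEKO1 alone by a log2 value of 1, edgeR recovered 1 and DESeq2 32. Of 100 changed by 2, edgeR recovered 42 and DESeq2 65. The simulated spread came from a fit with no treatment term, so these counts cannot weigh the 34 calls of DESeq2 against the 21 of edgeR.

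The lines also differed in the levels of the members whatever the treatment. A difference between lines, with treatment in the fit, was called for 68 of 82 members, where 90.0% of all genes were called. The 4 libraries of a line, each with its own treatment, stand in as repeats here and are not separate origins of that line. The p-values between lines thus compare these lines over these libraries only. JVM2 was higher than JEKO1 for 36 members and lower for 23, where 38.6% of all genes were higher and 39.8% lower. MAVER1 was higher than JEKO1 for 21 and lower for 26 (31.8% and 34.7% of all genes), and higher than JVM2 for 16 and lower for 29 (34.7% and 36.5%).

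Some subunits differed between lines by more than a log2 value of 1. SDHD was at 67.9, 36.5 and 11.7 CPM in the controls of JEKO1, JVM2 and MAVER1, a log2 difference of -2.44 ± 0.09 between MAVER1 and JEKO1 (adjusted p = 3.64e-09 by edgeR, over all treatments). COX6C ran the other way, 2.33 ± 0.12 higher in MAVER1 than in JEKO1 (adjusted p = 2.35e-08 by edgeR). UQCRFS1 stood 1.50 ± 0.08 higher in JVM2 than in JEKO1 (adjusted p = 2.67e-08 by edgeR), and the subunit c gene ATP5MC3 was 1.48 ± 0.12 lower in MAVER1 than in JVM2 on the log2 scale (adjusted p = 5.30e-07 by edgeR), while ATP5MC2 was 1.53 ± 0.13 higher in MAVER1 than in JEKO1 (adjusted p = 1.89e-06 by edgeR). Within each pair of lines and each complex of more than 4 members, some members were higher and others lower. In complex II all 4 members were lower in MAVER1 than in JVM2 (median -0.54).

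In the controls the levels per kilobase of transcript covered a wide range within each complex. The medians over members were 41.8 CPM per kb for complex I, 46.4 for complex II, 76.9 for complex III, 82.9 for complex IV and 64.6 for complex V. The members with the highest level per kb were NDUFS5 (221), SDHA (97.2), UQCRH (268), COX4I1 (537) and ATP5F1B (951). Per-gene levels rest on 1 principal transcript and were not compared by a test.

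Assembly factors, carriers and regulators of the complexes were taken as further lists. With both drugs 14 of 19 complex I assembly factors fell and 0 rose (median -0.41), led by NDUFAF1 (-0.56 ± 0.09, adjusted p = 0.00373) and TMEM126A (-0.56 ± 0.09, adjusted p = 0.00373 by edgeR). Of 24 complex IV assembly factors tested, 15 fell and 2 rose (median -0.37). COA4 (-0.73 ± 0.08, adjusted p = 0.00174) and COX16 (-0.61 ± 0.15, adjusted p = 0.0132) fell most, and COX20 (0.64 ± 0.20, adjusted p = 0.0351) and PET100 (0.95 ± 0.26, adjusted p = 0.0222 by edgeR) rose, from 35 to 179 and 17 to 113 reads per library. Of the complex II assembly factors 1 of 4 fell (SDHAF3), of complex III 2 of 6 (UQCC2 and UQCC3), and of complex V with its inhibitor 2 of 7 (TMEM70 and the inhibitor ATP5IF1).

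Between the complexes, 7 of 15 genes for electron carriers and ubiquinone synthesis fell and 1 rose. PDSS1, which makes the tail of ubiquinone, fell by 0.85 ± 0.13 (adjusted p = 0.00350 by edgeR) and COQ3, an enzyme of its ring, by 0.65 ± 0.16, while the kinase-like COQ8A rose by 0.40 ± 0.07 (adjusted p = 0.00483 by edgeR). Cytochrome c, CYCS, which carries electrons from complex III to IV, fell by 0.57 ± 0.13 (adjusted p = 0.0107 by edgeR). The heart, muscle, lung and testis forms of complex IV subunits gave 0 of 6 genes that passed the filter on low counts.

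Of 12 regulators of nuclear respiratory genes tested, 5 fell and 0 rose with both drugs. They were NRF1 (-0.30 ± 0.08, adjusted p = 0.0162), the GABP subunits GABPA (-0.26 ± 0.09) and GABPB1 (-0.29 ± 0.08), and TFAM (-0.28 ± 0.08) and TFB1M (-0.47 ± 0.13), which act in transcription and ribosome assembly in mitochondria. YY1 (-0.05 ± 0.07, adjusted p = 0.576), MYC (0.16 ± 0.10, adjusted p = 0.240) and the coactivator PPARGC1B (-0.05 ± 0.11, adjusted p = 0.772 by edgeR) were not called, and PPARGC1A had at most 7 reads in a library.

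**Figure D4:**
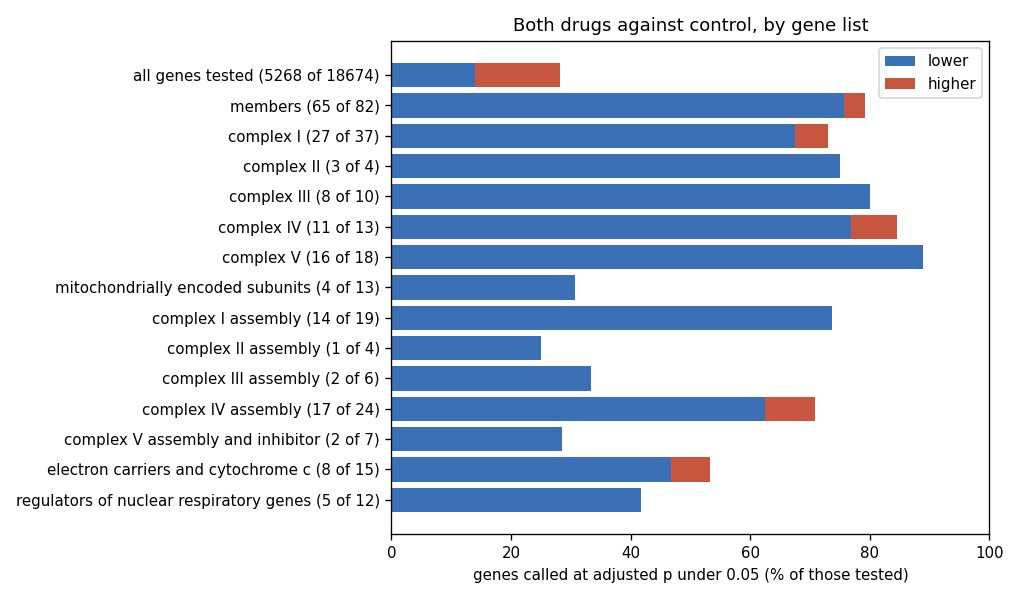
Share of the tested genes of each list that were called lower (blue) or higher (red) with both drugs against control at an adjusted p under 0.05 by edgeR (x axis, % of those tested); the bracket after each list name gives the genes called and tested. All genes tested stand at the top with 14.0% lower and 14.2% higher, and the members below them with 62 lower and 3 higher of 82.

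The 13 subunits encoded in mitochondrial DNA, which form the cores of complexes I, III, IV and V, had changes that ran from -1.57 to 0.58 with both drugs. With both drugs 4 fell and 0 rose (median -0.93). MT-CO1, the oxygen-reducing core of complex IV, was at 3914, 5708 and 4208 CPM in the controls of JEKO1, JVM2 and MAVER1 and at 564, 2995 and 1757 with both drugs (-1.57 ± 0.31, adjusted p = 0.00654 by edgeR). MT-ND6 fell by 1.42 ± 0.33 (adjusted p = 0.0117 by edgeR). As the libraries were of polyadenylated RNA, a changed level and a changed poly(A) tail of these mitochondrial transcripts cannot be told apart. MT-ND2 was higher with ironomycin, from 1091 to 2549.7 CPM in JVM2 and from 1246 to 2289 in MAVER1, and from 1079 to 1600.0 in JEKO1, where it was at 876 with both drugs. Averaged over ibrutinib its effect in JEKO1 was 0.07 ± 0.17 (adjusted p = 0.804 by edgeR). Over the 3 lines its effect averaged over ibrutinib was a rise of 0.70 ± 0.19 (adjusted p = 0.0162 by edgeR). In JEKO1 ironomycin, averaged over ibrutinib, lowered 12 of the 13 (median -1.57), in MAVER1 it lowered 4 and raised 1 and in JVM2 it lowered 0 and raised 1.

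Together the reads of these 13 genes made up 1.75%, 1.81% and 1.64% of the control libraries of JEKO1, JVM2 and MAVER1 and 0.454%, 1.80% and 1.08% of the libraries with both drugs. The reads of the 84 nuclear members made up 1.10%, 0.961% and 0.985% of the controls and 0.750%, 0.868% and 0.683% with both drugs. Both sums were lower with both drugs in every line, by least in JVM2.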

How the data were processed

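RNA-seq was analysed in 12 libraries of 3 MCL lines under 4 treatments, with groups taken from the labels. Per the labels, the authors deposited raw read counts per gene; the submitters' processing notes name STAR, DESeq2 and GRCh37, and the counting tool is not given in the sources used here. The library kit was described as stranded.

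The test was that of edgeR 4.0.16 (R 4.3.3; TMM factors, filterByExpr, quasi-likelihood test, treatment and cell line as terms, Benjamini-Hochberg adjustment over 18674 genes, threshold 0.05). The ironomycin effect by cell line used a further fit with a term for ironomycin in each line. Log2 ratios within a line used a prior count of 2. CPM (counts scaled to a common total over tested genes) used TMM factors. Cell line was kept as a block because same-numbered libraries come from the same line: deviations from group means correlated at 0.926 to 0.976 within lines and at -0.705 to -0.127 between lines. With 1 library per line and treatment, p-values of treatment comparisons measure the spread left after the terms for treatment and line. That spread is how far treatment changes differed between the 3 lines, with 6 residual degrees of freedom. Tests within a line and by cell line set 2 libraries with ironomycin, without and with ibrutinib, against 2 without it, with 4 residual degrees of freedom and no replicate culture, so their spread is that left after the line-specific ironomycin terms.

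On data simulated for ironomycin against control over 18674 genes, edgeR recovered 41 of 100 genes changed by a log2 value of 1 and 74 of 100 changed by 2, and called 12 unchanged genes. The simulated spread was that of a fit with cell line only, which takes in the treatment changes of these data. Recovery and false calls in the data themselves may therefore differ. Alternatives were DESeq2 1.42.0, its size factors, library totals, no filter, no cell line term, each line left out, a fold minimum, and offsets for length and GC content. No columns were left unused.

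Members, lists and tests were chosen with earlier results of these data known. Genes named with values were the iron-sulfur or heme subunits, the paralogous subunits, the members of each complex with the largest called rises and falls (or the lowest p where none was called), the 5 with the lowest adjusted p by cell line, and leading called genes of each other list. ATP5F1B, ATP5MGL, the readthrough genes and the further genes of the assembly, carrier and regulator lists were named after their values were seen. Promoter windows, on GRCh38.p14, were matched by symbol only, and no coordinate was converted. 1 marker gene is not reported here.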

Additional observations from a re-analysis of the deposited data

Results flagged for a closer look

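For 21 members the response to ironomycin was not alike in the 3 lines by a test of the difference itself (edgeR's quasi-likelihood test on the terms for ironomycin in each line, Benjamini-Hochberg adjustment over all genes tested). Among the members named with values, the adjusted p was 0.0127 for NDUFA6, 0.0174 for NDUFA1, 0.0223 for COX5B, 0.0261 for NDUFS5, 0.0290 for ATP5MJ, 0.0291 for UQCR10, 0.0309 for COX7A2L, 0.0370 for NDUFB7, 0.0376 for NDUFC1, 0.0423 for ATP5MC1 and 0.0454 for COX6B1. JVM2 and MAVER1 had the same ironomycin dose, 250 nM, while JEKO1 had 50 nM, so for JEKO1 the dose and the line cannot be told apart.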

How the results depend on the processing

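With both drugs against control, both drugs against ibrutinib and ironomycin averaged over ibrutinib, 65, 56 and 61 members were called. With no replicate block (cell line left out) each count was 0, and with a log2 change of at least 1 required each was 0, since no member changed by that much. Leaving out each line in turn gave 0 to 70, 0 to 67 and 0 to 70. Counts over all genes are not given for these settings, so these member counts cannot be set against a share of all genes. Ironomycin against control gave 31 with DESeq2 and 0 to 34 with a line left out. The effect by cell line gave 34 with DESeq2, 0 with the fold minimum and 0 to 28 with a line left out, and the difference between lines gave 22 with the fold minimum and 44 to 52 with a line left out. These counts with a line left out likewise have no counts over all genes beside them. Other counts stayed within 1.5 times.

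Library totals changed the split of all genes called with both drugs from 2655 higher and 2613 lower to 3934 higher and 1563 lower. The sign turned under some settings for members that were not called. COX7A2L with both drugs was at -0.000596 with no filter and ran from -0.12 (without JVM2) to 0.15 (without JEKO1) with a line left out, and its averaged ironomycin effect ran from -0.034 (without JVM2) to 0.25 (without JEKO1). NDUFA10 with library totals was at 0.015 with both drugs and 0.049 averaged over ibrutinib, and with a line left out the average ran from -0.10 (without JVM2) to 0.0017 (without JEKO1). NDUFV2 with both drugs ran from -0.59 (without MAVER1) to 0.20 (without JVM2), and its average from -0.026 (without MAVER1) to 0.17 (without JEKO1). Members under 500 reads and those sharing reads with pseudogenes are the least certain, and 3 lines limit every count.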
